A study of Mus musculus with 6 samples.

Results

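The proneural basic helix-loop-helix (bHLH) genes examined here are Neurog1, Neurog2, Neurog3, Atoh1, Neurod1, Neurod2, Neurod4, Nhlh1 and Nhlh2. They were chosen by gene symbol, and each of the 9 was represented by a single row of the expression table, among 19938 genes with a symbol of their own. The 6 arrays follow mouse cells of strain 129 along a differentiation path. Epiblast stem cells (EpiSCs, 1 array), pluripotent cells of the postimplantation epiblast type, were kept in medium with FGF2 and knockout serum replacement. Patterned neural rosettes (1 array, day 5) were made from them with SB431542, Dorsomorphin and Noggin, which block Nodal, activin and BMP signalling, and with retinoic acid and sonic hedgehog (SHH). Oligodendrocyte progenitor cells (OPCs, 2 arrays, at passages 3 and 11) came from dissociated rosettes and were expanded in medium holding SHH, PDGF-AA and FGF2. Oligodendrocytes (2 arrays, made from OPCs of passages 3 and 11) were derived from these with thyroid hormone, after withdrawal of both FGF2 and PDGF-AA. Whether the 2 arrays of a cell type come from independent cultures, apart from the passage, is not stated in the labels, and the p-values reflect no more than the scatter among these 6 arrays.

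Proneural factors are transcription factors that bind DNA as dimers with the widely expressed E proteins, at short sites called E-boxes. Neurogenins and Atoh1 act early and commit a neural progenitor to becoming a neuron, and NeuroD and Nhlh factors act after them, as the young neuron differentiates. Committed cells raise Notch ligands, and Notch signalling in their neighbours raises Hes and Hey repressors that hold proneural genes down, while Id proteins bind E proteins and keep them from forming active dimers. In the ventral spinal cord Neurog2 works in the Olig2-positive progenitors that give motor neurons, and the same domain later gives OPCs.

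The labelled cell types were checked against their markers. In the rosette, each of 5 EpiSC markers, Pou5f1 and Nanog among them, lay at least 2-fold under EpiSCs. All 6 OPC markers (among them Pdgfra and Sox10) rose in OPCs against the rosette. All 6 oligodendrocyte markers measured (among them Mbp and Mag) rose in oligodendrocytes against OPCs. None of the 6 OPC markers was called lower in oligodendrocytes than in OPCs (0.0502% of all genes), so OPC genes stayed high on those arrays. Of 5 rosette markers, 3 were at least 2-fold higher in the rosette than in EpiSCs. Of the 18 general neuron genes listed, 16 were at least 2-fold higher there (list median 2.98), against 6.91% of all genes. Because these are bulk cultures, fewer cells of a type and less RNA per cell cannot be told apart.

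The DNA just before the start of these genes differed in base composition between the members, and 5 stretches are shown for that reason. Each is the 250 bases before the most upstream start of the gene in RefSeq, build GRCm38.p6, read 5′ to 3′ on the gene's strand, with any E-box (CANNTG, searched on both strands) in capitals.
Neurod4: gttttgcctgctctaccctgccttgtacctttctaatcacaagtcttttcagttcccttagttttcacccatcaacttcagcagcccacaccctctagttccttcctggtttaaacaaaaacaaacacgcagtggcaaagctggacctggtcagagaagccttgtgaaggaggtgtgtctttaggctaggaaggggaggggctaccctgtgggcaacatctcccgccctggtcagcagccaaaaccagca
Nhlh1: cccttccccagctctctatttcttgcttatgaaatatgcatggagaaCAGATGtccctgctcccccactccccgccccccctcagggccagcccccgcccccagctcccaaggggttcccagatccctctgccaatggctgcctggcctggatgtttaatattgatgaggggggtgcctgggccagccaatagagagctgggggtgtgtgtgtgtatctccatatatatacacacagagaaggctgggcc
Nhlh2: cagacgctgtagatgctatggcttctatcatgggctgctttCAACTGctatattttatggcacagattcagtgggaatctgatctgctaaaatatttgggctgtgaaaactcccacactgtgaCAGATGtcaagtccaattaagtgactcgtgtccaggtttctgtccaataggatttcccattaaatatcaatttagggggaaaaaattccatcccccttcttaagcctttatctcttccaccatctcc
Neurog1: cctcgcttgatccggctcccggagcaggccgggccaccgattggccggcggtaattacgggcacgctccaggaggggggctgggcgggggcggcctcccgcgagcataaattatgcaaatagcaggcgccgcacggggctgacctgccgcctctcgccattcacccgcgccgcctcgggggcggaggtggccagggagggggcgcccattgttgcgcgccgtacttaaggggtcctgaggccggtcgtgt
Neurog2: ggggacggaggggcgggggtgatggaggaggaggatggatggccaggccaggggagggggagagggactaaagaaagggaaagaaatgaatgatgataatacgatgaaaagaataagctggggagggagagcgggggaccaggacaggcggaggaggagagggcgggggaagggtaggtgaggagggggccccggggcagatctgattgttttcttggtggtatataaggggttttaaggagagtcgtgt
These lie at chr10:130280255-130280504 (minus strand), chr1:172057597-172057846 (minus strand), chr3:102009895-102010144 (plus strand), chr13:56252181-56252430 (minus strand) and chr3:127632886-127633135 (plus strand). Neurod4, Nhlh1 and Nhlh2 had few CpG pairs, with ratios of observed to expected CpG of 0.125, 0.0953 and 0.184. Neurog1 and Neurog2 had ratios of 0.923 and 0.713, and the remaining members lay between 0.575 (Neurog3) and 0.841 (Neurod1). Neurod2 was at 0.632, so the NeuroD genes did not share a low ratio. Over 27025 genes with such a stretch the median ratio was 0.379. An E-box of any kind was present in 5 of the 9 members and in 66.1% of all genes. The form CAGATG (searched on both strands) is among the E-boxes counted above and is bound by neurogenin and NeuroD factors. It was found in 3 members, Nhlh1, Nhlh2 and Neurod2, and in 14.5% of all genes. In Nhlh1 it began 203 bases and in Nhlh2 127 bases before the start. The form CAGCTG, also among them, was found in 1 member, Neurog3, and in 12.7% of all genes. The N-box CACNAG, a form bound by Hes repressors, occurred in Neurod4 and Nhlh2, and in 36.8% of all genes. These matches describe letters within 250 bases and do not show binding.

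Of the 9 members, 6 stood far above every other array in the rosette. Neurod4, Nhlh1, Neurog1, Nhlh2, Neurog2 and Neurod1 were each at least 2-fold higher in the rosette than in the highest of the other 5 arrays, which held for 1.53% of all genes. Of these, 4 were at least 4-fold above the highest other array (0.336% of all genes). All values are log2 RMA values, in which a step of 1 is a factor of 2, and the level of a gene cannot be set against that of another gene because their probes differ. The median value over all genes was 9.005. Array values below it may include background, since no detection call was used.

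**Figure D1:**
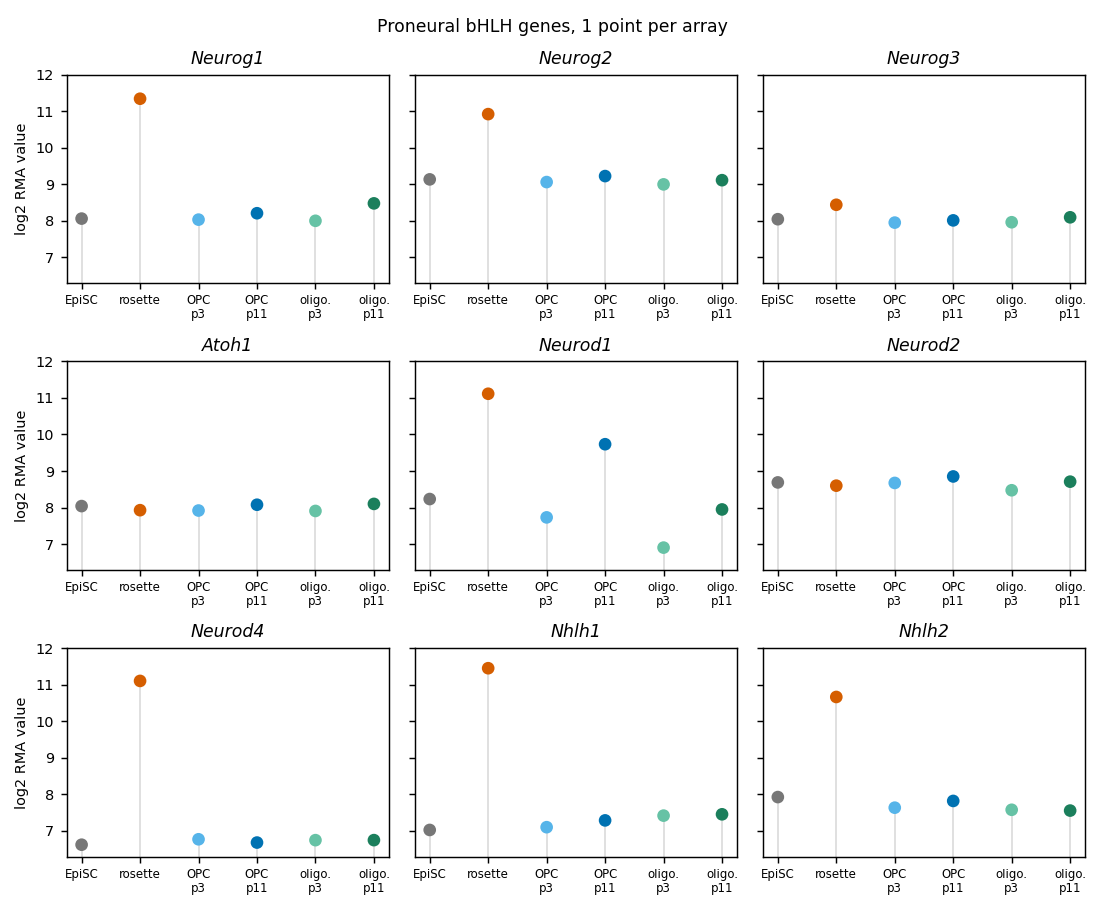
Log2 RMA values of the 9 proneural bHLH genes (vertical axis) on each of the 6 arrays (horizontal axis, EpiSC, rosette, OPC and oligodendrocyte at passages 3 and 11, 1 point per array). The rosette point is well above the others for Neurog1, Neurog2, Neurod1, Neurod4, Nhlh1 and Nhlh2, and OPCs at passage 11 have a raised Neurod1 point at 9.73.

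Among the neurogenins, Neurog1 drives the birth of sensory neurons and of spinal interneurons. Its value was 8.06 in EpiSCs, 11.34 in the rosette, 8.03 and 8.20 in OPCs at passages 3 and 11, and 7.997 and 8.47 in oligodendrocytes at passages 3 and 11. The rosette was thus the single high array, and the other 5 lay within 0.48 of each other. The rosette exceeded EpiSCs by 3.28 on the log2 scale (9.72-fold, 1 array each, no test).

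Neurog2, which specifies motor neurons together with Olig2 in the ventral spinal cord, had a lesser peak. It was at 9.13 in EpiSCs and 10.92 in the rosette. In OPCs it was at 9.06 (passage 3) and 9.22 (passage 11), and in oligodendrocytes at 8.99 and 9.11. The rosette exceeded EpiSCs by 1.79 (3.45-fold), and the 5 other arrays spanned 0.23.

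Neurog3, best known as the factor that starts the endocrine cells of the pancreas, stayed in a narrow band. Its values were 8.04 in EpiSCs, 8.44 in the rosette, 7.95 and 8.01 in OPCs, and 7.96 and 8.09 in oligodendrocytes. The rosette was the highest array here too, but by 0.34 over the next, and 19.6% of all genes had the rosette above every other array by some amount. Of 8 pancreatic endocrine genes measured, 1 was at least 2-fold higher in the rosette than in EpiSCs, beside 6.91% of all genes. That was Sst, the somatostatin gene that neurons also use, by 1.14.

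Atoh1, which makes cerebellar granule neurons, dorsal spinal interneurons and hair cells, gave the narrowest band. Its 6 values lay between 7.91 (oligodendrocytes, passage 3) and 8.10 (oligodendrocytes, passage 11), with the rosette at 7.93 and EpiSCs at 8.04. The rosette was therefore no higher than EpiSCs, with a difference of -0.11.

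The NeuroD genes split. Neurod4, which acts in the early differentiation of hindbrain, spinal and retinal neurons, was at 6.62 in EpiSCs, 11.11 in the rosette, 6.77 and 6.68 in OPCs, and 6.75 in each oligodendrocyte array. The 5 arrays outside the rosette spanned only 0.15, against a rosette excess over EpiSCs of 4.48 (22.4-fold). Only 4 of all genes had a larger excess in that comparison.

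Neurod2, a factor of maturing forebrain and cerebellar neurons, showed no such peak. It was at 8.69 in EpiSCs, 8.60 in the rosette, 8.67 and 8.85 in OPCs, and 8.47 and 8.71 in oligodendrocytes. The highest array was OPCs at passage 11, and the whole span was 0.38.

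Neurod1, which drives differentiation and survival of many neurons and of pancreatic endocrine cells, was the member whose OPC arrays disagreed. It stood at 8.23 in EpiSCs and 11.11 in the rosette. In OPCs it was at 7.73 at passage 3 and 9.73 at passage 11, and in oligodendrocytes at 6.90 and 7.95. The rosette was again the highest array, OPCs at passage 11 came next, and oligodendrocytes at passage 3 were the lowest.

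The Nhlh genes encode bHLH factors of newly born neurons. Nhlh1 was at 7.03 in EpiSCs, 11.45 in the rosette, 7.10 and 7.29 in OPCs, and 7.42 and 7.46 in oligodendrocytes. Nhlh2, which is also known for its role in hypothalamic neurons, was at 7.93 in EpiSCs, 10.67 in the rosette, 7.64 and 7.82 in OPCs, and 7.58 and 7.56 in oligodendrocytes. For both genes every array outside the rosette lay within 0.43 of the others. The rosette exceeded EpiSCs by 4.43 (21.5-fold) for Nhlh1 and by 2.74 (6.68-fold) for Nhlh2.

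The step from EpiSCs to the rosette thus separated the members into 6 that were at least 2-fold higher (6.91% of all genes) and 3, Neurog3, Atoh1 and Neurod2, within 0.39 of EpiSCs. Of the 6, all but Neurog2 were at least 4-fold higher, a size reached by 1.75% of all genes. None of the 9 was at least 2-fold lower (3.69% of all genes). The median difference of the members was 2.74, against -0.07 over all genes. These are differences between single arrays and carry no p-value.

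**Figure D2:**
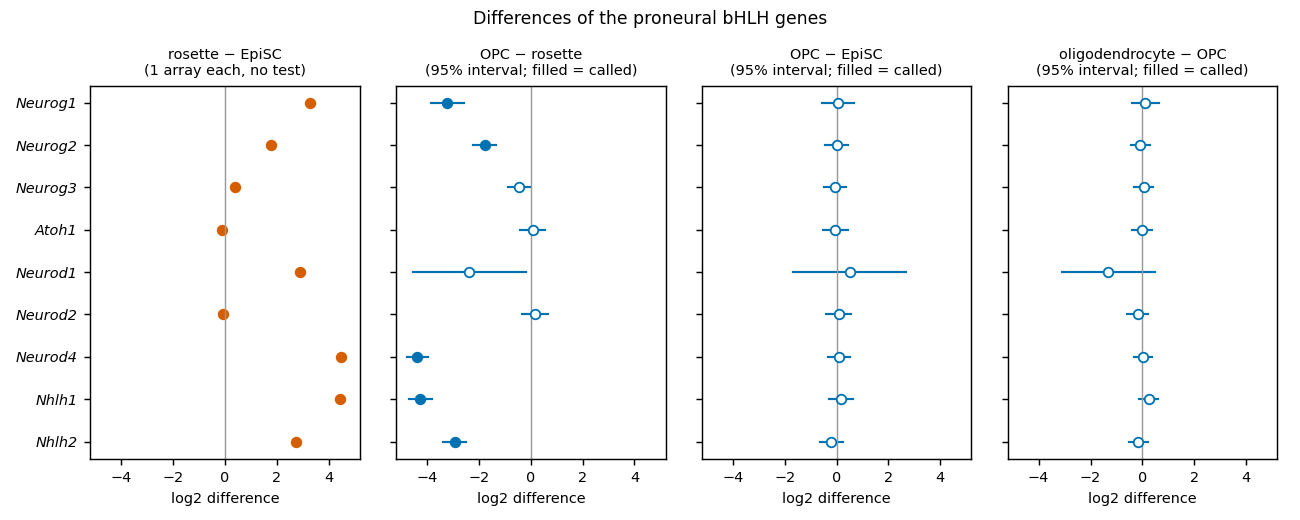
Log2 differences (horizontal axis) of the 9 genes (vertical axis) for the rosette against EpiSCs (1 array each, points only), and for OPCs against the rosette, OPCs against EpiSCs and oligodendrocytes against OPCs (points with 95% intervals of the limma fit, filled where the adjusted p is under 0.05). Filled points occur for 5 genes in OPCs against the rosette and nowhere else, and the Neurod1 intervals are the widest.

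When rosettes gave way to OPCs, 5 of the 9 members fell, Neurod4, Nhlh1, Neurog1, Nhlh2 and Neurog2. The test was limma over all 6 arrays with the 4 cell types as groups, two-sided, with Benjamini-Hochberg adjustment over all 19938 genes and a threshold of 0.05. The rosette and EpiSC groups, with a single array each, took their spread from the OPC and oligodendrocyte pairs. In this comparison 1.87% of all genes were called lower and 1.26% higher, and no member was called higher. With passage as a replicate block 1206 genes were called in either direction, against 624 without it.

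Neurod4 averaged 6.73 ± 0.06 in OPCs (SD, n = 2), against 11.11 in the rosette, a difference of -4.38 ± 0.17 (SE, 20.8-fold, limma adjusted p = 0.00361). Nhlh1 averaged 7.20 ± 0.13 in OPCs (SD, n = 2), against 11.45 in the rosette, a difference of -4.26 ± 0.18 (SE, 19.1-fold, limma adjusted p = 0.00361). Both OPC arrays lay more than 4 log2 units below the rosette for these genes, and 7 and 8 of all genes had a more negative difference. The other 3 members called had lesser falls. Neurog1 averaged 8.12 ± 0.12 in OPCs (SD, n = 2), against 11.34 in the rosette, a difference of -3.22 ± 0.25 (SE, limma adjusted p = 0.00789). Nhlh2 averaged 7.73 ± 0.13 in OPCs (SD, n = 2), against 10.67 in the rosette, a difference of -2.94 ± 0.18 (SE, limma adjusted p = 0.00583). Among the members called, Neurog2 had the least fall. It averaged 9.14 ± 0.12 in OPCs (SD, n = 2), against 10.92 in the rosette, a difference of -1.78 ± 0.18 (SE, limma adjusted p = 0.0133). Its call was lost without OPC replicate 1, at passage 3 (adjusted p = 0.0725), and without OPC replicate 2, at passage 11 (adjusted p = 0.0664).

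Neurod1 was not called, with a mean of 8.73 ± 1.42 in OPCs (SD, n = 2), against 11.11 in the rosette. The limma difference was -2.38 with a 95% interval from -4.56 to -0.20 (adjusted p = 0.281). The rosette exceeded the passage 3 array by 3.38 and the passage 11 array by 1.38, so both OPC arrays were below it by unequal amounts. With passage as a replicate block Neurod1 passed the threshold (limma adjusted p = 0.0342). That fit takes the gap between the OPC arrays out of the scatter, and the rosette has no passage. Its p-value therefore does not measure the spread between OPC cultures. Leaving out OPC replicate 2 gave -3.38, and leaving out OPC replicate 1 gave -1.38. Without oligodendrocyte replicate 1 or replicate 2, which enter only the spread, the difference stayed at -2.38. The spread then came from the OPC pair alone, so no p-value of those fits is given. Neurog3 differed by -0.46 (95% interval -0.89 to -0.02, adjusted p = 0.296), Atoh1 by 0.07 (95% interval -0.40 to 0.54) and Neurod2 by 0.16 (95% interval -0.33 to 0.66), and none of these passed.

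OPCs and EpiSCs are both proliferating cultures grown with FGF2, and the members were compared between them to place the OPC values. No member was called in limma, against 7.01% of all genes in either direction, 2.93% lower and 4.07% higher (1397 genes, and 2318 with passage as a replicate block). None of the 9 had an unadjusted p under 0.05 here, against 20.5% of all genes. This comparison uses the same OPC arrays as the one against the rosette. The differences, OPC minus EpiSC, were 0.10 for Neurod4 (95% interval -0.31 to 0.52), 0.17 for Nhlh1 (-0.28 to 0.62) and -0.20 for Nhlh2 (-0.64 to 0.25). For Neurog1 the interval ran from -0.57 to 0.69 and for Neurog2 from -0.44 to 0.46. A 2-fold difference in array value thus lies outside the interval for each of these 5. Apart from Neurog2, their values here were below the median of all genes, where background can compress differences, so a 2-fold difference in RNA is not excluded. The EpiSC side is also a single array whose spread was taken from the other groups. For Neurod1 the interval ran from -1.68 to 2.68 and leaves room for changes above 2-fold either way. Its passage 3 array was 0.50 below EpiSCs, and its passage 11 array was 1.5002 above.

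No member was called between oligodendrocytes and OPCs, against 0.446% of all genes in either direction, 0.0502% lower and 0.396% higher (limma, 89 genes), and none had an unadjusted p under 0.05 (12.3% of all genes). Apart from Neurod1, the differences ranged from -0.17 (Neurod2) to 0.24 (Nhlh1). The 95% intervals of these 8 genes lay between -0.58 and 0.63. Apart from Neurog2, their values here were below the median of all genes, where background can compress differences. With 0.446% of all genes called, the lack of a call among the members also says little. Neurod1 averaged 7.43 ± 0.74 in oligodendrocytes and 8.73 ± 1.42 in OPCs (SD, n = 2 each). The difference was -1.31 with a 95% interval from -3.09 to 0.47 (adjusted p = 0.578). That fit counts the passage difference as scatter, and with passage as a replicate block the limma adjusted p was 0.119. Within passages the difference was -0.83 at passage 3 and -1.79 at passage 11, lower in oligodendrocytes at each. Leaving out OPC replicate 2 gave -0.31, and leaving out OPC replicate 1 gave -2.31.

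Among the members, Neurod1 stood out between the passage 3 and passage 11 arrays. At passage 11 its value was higher than at passage 3 by 2.002 in OPCs (4.01-fold) and by 1.04 in oligodendrocytes (2.06-fold). Of all genes, 0.0602% (12 genes) were at least 2-fold higher at passage 11 in both cell types, and Neurod1 was the only member among them. In OPCs alone the share was 0.14% and in oligodendrocytes alone 0.772%, again with no other member. In OPCs 3 genes had a larger excess, Cdh19, Dmrta1 and Hepacam, named here after their values were seen. A limma model of the 4 arrays of these cell types, adjusted for cell type, gave 1.52 ± 0.26 (SE, unadjusted p = 0.00357). It did not pass after adjustment (adjusted p = 0.357), nor did any other gene (0% of all genes called in either direction, lower or higher), although 13.9% of genes had an unadjusted p under 0.05. That fit leaves 1 residual degree of freedom, which is the disagreement between the cell types. Its p-values therefore do not measure the spread between cultures of a passage. Oligodendrocytes were made from OPCs of the same passage, so the cell types are not independent, and passage and culture cannot be told apart.

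**Figure D3:**
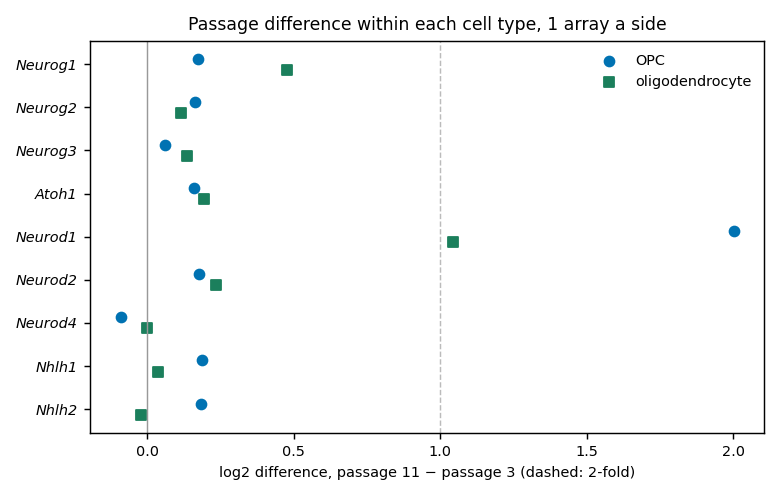
Log2 difference between passage 11 and passage 3 (horizontal axis) for the 9 genes (vertical axis) in OPCs (circles) and oligodendrocytes (squares), 1 array a side. Neurod1 is at 2.002 in OPCs and 1.04 in oligodendrocytes, and every other point lies between -0.09 and 0.48.

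The other 8 members differed by -0.09 to 0.19 between passages in OPCs and by -0.02 to 0.48 in oligodendrocytes, where Neurog1 was the highest. Small positive differences were also found in genes of another tissue. The 8 pancreatic endocrine genes measured had a median difference of 0.13 in OPCs, where 8 of 8 were positive, and 0.25 in oligodendrocytes, where 7 were. The medians over all genes were 0.02 in OPCs and 0.06 in oligodendrocytes. Of 20 genes known to be induced by proneural factors, 9 were higher at passage 11 in OPCs and 11 in oligodendrocytes, with medians of -0.07 in OPCs and 0.07 in oligodendrocytes. None of them was at least 2-fold higher, a size that few of all genes reached. Among 18 general neuron genes, 7 were higher at passage 11 in OPCs and 6 in oligodendrocytes. Stmn2, which encodes a tubulin-binding protein of growing axons, was the general neuron gene with the largest passage difference, at -3.55 (adjusted p = 0.341).

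The neighbours of the proneural factors in their pathway behaved less uniformly. Among 15 other neural bHLH activators and E proteins measured, none had the rosette at least 2-fold above every other array. The E proteins, their dimer partners, were present on every array. Tcf3 was at 11.08 in EpiSCs, 11.17 in the rosette, 11.08 and 10.78 in OPCs, and 10.61 and 10.35 in oligodendrocytes. Tcf12 was at 11.80 in EpiSCs, 12.61 in the rosette, 13.03 and 13.12 in OPCs, and 12.77 and 12.56 in oligodendrocytes. Tcf12 rose in OPCs against EpiSCs by 1.27 ± 0.18 (SE, limma adjusted p = 0.0211), and Tcf4, another E protein, by 1.87 ± 0.19 (SE, limma adjusted p = 0.00858). Against the rosette, 2 of the 15 rose in OPCs (1.26% of all genes) and none fell (1.87%), with a list median of 0.01 (all genes 0.02). These were Olig1, by 5.01, and Olig2, by 3.39 (limma adjusted p = 0.00583 for each), bHLH factors of the oligodendrocyte lineage. Olig2 was already 1.51 higher in the rosette than in EpiSCs, on the array where Neurog2 peaked.

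**Figure D4:**
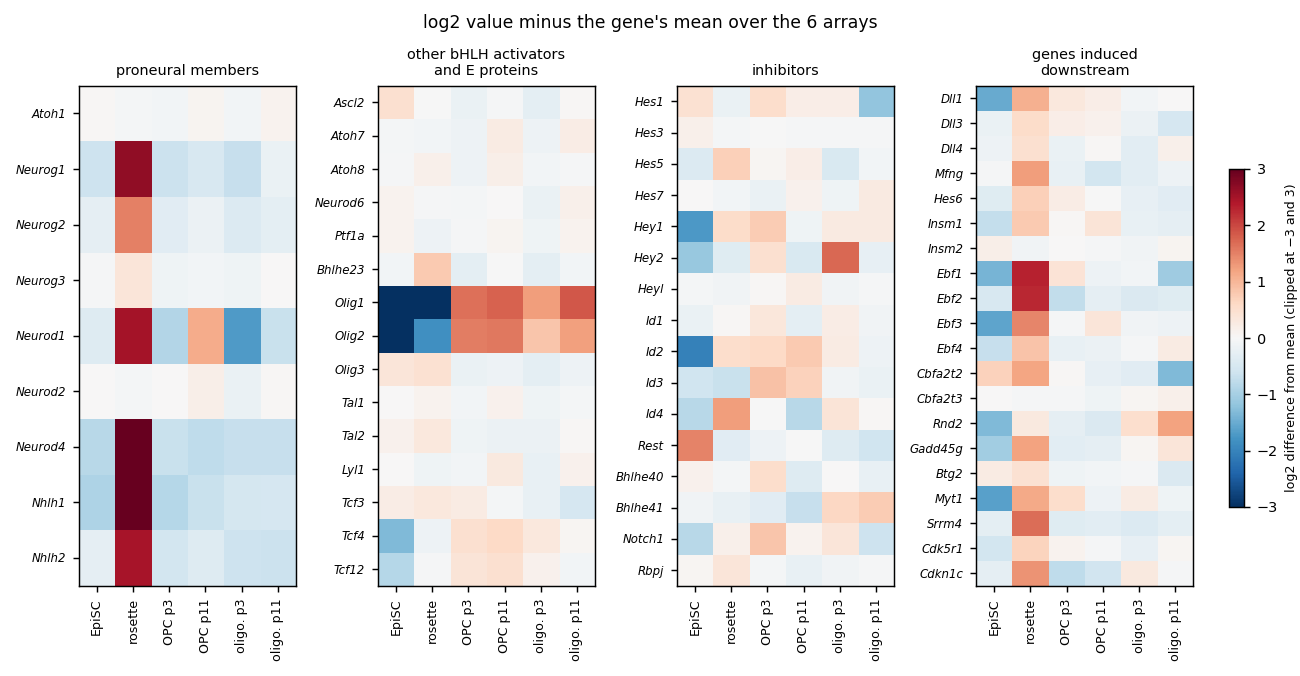
Log2 value minus the gene's mean over the 6 arrays (colour, clipped at -3 and 3) for the 9 proneural members, 15 other bHLH activators and E proteins, 16 inhibitors and 20 genes induced downstream (rows), on the 6 arrays (columns). The rosette column is red for 6 members and for many induced genes, and the inhibitors show no common column.

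Of 16 inhibitors of proneural activity, 4 were at least 2-fold higher and 1 at least 2-fold lower in the rosette than in EpiSCs (list median 0.09). The shares over all genes were 6.91% higher and 3.69% lower. Id2, which sequesters E proteins, was higher by 2.55, the Notch-responsive repressor gene Hey1 by 2.28 and Id4 by 2.07. Hes5, a direct Notch target of neural progenitors, was at 11.07 in the rosette and 9.93 in EpiSCs. Rest, which represses neuronal genes outside neurons, was lower by 1.84 (9.57 in the rosette and 11.41 in EpiSCs). Against the rosette, 1 of the 16 rose in OPCs (1.26% of all genes) and none fell (1.87%). That was Id3, by 1.46 ± 0.18 (SE, limma adjusted p = 0.0215), while the list median was 0.09 and that of all genes 0.02. Against EpiSCs, OPCs had higher Id2 (2.72, limma adjusted p = 0.00489), Hey1 (2.06, adjusted p = 0.0387) and Id3 (1.40, adjusted p = 0.0155), and lower Rest (-1.57, adjusted p = 0.0131). Rest was at 9.77 and 9.92 in OPCs, against 9.57 in the rosette, and was not called between them (adjusted p = 0.651). Hes1 differed by 0.57 between OPCs and the rosette (adjusted p = 0.782), and Id4 by -1.66 (adjusted p = 0.0941).

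Genes induced downstream of proneural factors were higher in the rosette, where 14 of 20 were at least 2-fold above EpiSCs (6.91% of all genes). None was 2-fold below (3.69% of all genes), and the list median was 1.52. The largest differences were those of Ebf1 (3.70), Ebf3 (3.06) and Ebf2 (2.74), helix-loop-helix factors of migrating and differentiating neurons, and of the zinc finger gene Myt1 (2.77). Ebf4 was lower in that order, at 1.54. The Notch ligand gene Dll1, a direct proneural target, was at 11.18 in the rosette and 8.59 in EpiSCs, and Dll3 was at 11.57 in the rosette and 10.82 in EpiSCs. In OPCs against the rosette, 5 of the 20 fell (1.87% of all genes) and none rose (1.26%). Of the 20 differences 19 were negative, with a list median of -0.88. Those that fell were Ebf2 (-2.78), Cdkn1c (-2.01), which encodes a cell cycle inhibitor, Srrm4 (-1.998), a neuronal splicing factor gene, Mfng (-1.63) and Gadd45g (-1.49), with limma adjusted p from 0.00894 to 0.0268.

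Against EpiSCs, 3 of the 20 induced genes were called higher in OPCs and none lower, beside 4.07% of all genes called higher and 2.93% lower. They were Myt1 by 1.82 (limma adjusted p = 0.0402), Dll1 by 1.78 (adjusted p = 0.00686) and Ebf3 by 1.76 (adjusted p = 0.0143). Dll1 was at 10.42 and 10.32 in OPCs and 10.04 and 10.12 in oligodendrocytes, between the EpiSC and the rosette value on each of these arrays. Insm1, a zinc finger gene of newborn neurons, was at 9.69 and 10.05 in OPCs, against 10.45 in the rosette. Hes6, which opposes Hes1, was at 11.26 and 11.01 in OPCs, against 11.75 in the rosette.

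General neuron genes had a similar split. In OPCs against the rosette 8 of 18 fell (1.87% of all genes) and none rose (1.26%), with a list median of -1.71. Those that fell included Nefl (-4.54) and Nefm (-3.87), which encode neurofilaments, and the vesicle gene Syt4 (-2.81) (limma adjusted p from 0.00361 to 0.00811). Stmn2 was at 10.48 and 7.82 in OPCs, against 13.74 in the rosette, a difference of -4.59 that did not pass (adjusted p = 0.363). Dcx, a microtubule protein gene of migrating neurons, was at 11.47 and 11.20 in OPCs, against 12.66 in the rosette, and did not pass (-1.32, adjusted p = 0.213). Against EpiSCs, 7 of the 18 neuron genes were higher in OPCs (4.07% of all genes) and 1 lower (2.93%). Dcx at 3.54 and Map2 at 3.54 were among the higher. General neuron genes thus moved with the members in the rosette, 16 of 18 being at least 2-fold higher there than in EpiSCs, and their part in the members' values was not tested.

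Markers of the neuron classes that these factors specify were read beside the 6.91% of all genes at least 2-fold higher in the rosette than in EpiSCs. Of 9 motor neuron genes measured, 2 were at least 2-fold higher in the rosette than in EpiSCs, Tbx20 by 3.13 and Slc18a3, the vesicular acetylcholine transporter gene, by 1.82, while Mnx1 was at 7.21 in the rosette and 7.30 in EpiSCs. In OPCs against the rosette, where 1.87% of all genes were called lower, 2 of the 9 fell. These were Slc18a3 by -2.21 (limma adjusted p = 0.00785) and Isl1 by -2.11 (adjusted p = 0.0159). Of 10 ventral interneuron genes, Sox21 (1.47) and Gata3 (1.16) were at least 2-fold higher in the rosette, and Gata3 fell in OPCs (-1.19, adjusted p = 0.0308). Of 8 sensory and neural crest neuron genes, 4 were at least 2-fold higher in the rosette, including the receptor gene Ret (2.58) and Pou4f1 (1.501), a homeobox gene of sensory neurons. In OPCs against the rosette 1 of the 8 fell and none rose, with 4 of 8 differences negative. Ret fell, with a difference of -2.70 (adjusted p = 0.0073), while Pou4f1 differed by -1.46 (adjusted p = 0.0601). The neurotrophin receptor genes Ntrk2 and Ntrk3 differed the other way, by 0.94 (adjusted p = 0.0874) and 0.57 (adjusted p = 0.509). Both were higher in OPCs than in EpiSCs, Ntrk2 by 1.83 (adjusted p = 0.00969) and Ntrk3 by 2.01 (adjusted p = 0.0254). Of 9 dorsal interneuron and granule neuron genes 1 was at least 2-fold higher in the rosette, the homeobox gene Meis1 (3.63), and none was called in OPCs against the rosette.

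Likeness was compared among the 5 members that spanned at least 2 log2 units, Neurog1, Neurod1, Neurod4, Nhlh1 and Nhlh2. Of their 10 pairs, the most alike was Neurod4 and Nhlh1, whose values, each with its own mean taken away, were 0.38 apart in Euclidean distance over the 6 arrays (Pearson r = 0.996, driven by the rosette array). Neurog1 and Nhlh2 came next at 0.61 (r = 0.980). Among these 5, the pairs with Neurod1 were 1.88 to 2.48 apart. The same distance was used to find the 3 genes outside the members closest to each of these 5. All but Neurod1 reached the span of 2 log2 units only through the rosette array, and without it they spanned at most 0.48. Their pairs and closest genes therefore largely restate how high that array stood. Neurod4 lay closest to Glra1, a glycine receptor subunit gene, at 0.40, and then to Nefm and the nicotinic receptor gene Chrna3. Nhlh1 lay closest to the retinoic acid receptor gene Rarb at 0.61, then to Glra1 and Chrna5. Neurog1 was closest to Dbx1, a homeobox gene of interneuron progenitors, at 0.37, followed by Cntn2 and Nxph4. Nhlh2 was closest to the axonal adhesion gene L1cam at 0.22, followed by Gm16551 and Sncg. The closest gene to Neurod1, Sfrp2, was 1.64 away (r = 0.879), and the next were Prdm8 and Slc10a4. Sfrp2 was at 9.86 and 9.88 in OPCs at passages 3 and 11, a passage difference far below that of Neurod1.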

How the data were processed

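Gene expression was measured on 6 Affymetrix whole-transcript arrays. The deposited log2 values come from the authors' own RMA processing. The submitters' processing notes name RMA and Affymetrix Expression Console, with versions not given in the sources used here. RMA corrects background, equalises the arrays and summarises the probes of a transcript, and low values can be compressed by background. Of 35556 rows, 21789 carried 1 gene symbol. Entrez IDs were compared with a RefSeq gene table, which held 21698 of them and altered 0 symbols. For 999 genes with more than a single row, the row of highest mean was used, which left 19938 genes. Array medians lay between 8.98 and 9.04, and the number of arrays limits the precision.

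Tests used lmFit and eBayes of limma 3.58.1, run in R 4.3.3. The fit by cell type had 2 residual and 3.32 prior degrees of freedom, and the passage fit 1 and 3.19. The rosette and EpiSC comparison has 1 array a side and no test. OPCs and oligodendrocytes share passage numbers, and per the labels oligodendrocytes were made from OPCs of the same passage. The passage differences of OPCs and oligodendrocytes correlated at 0.503 over genes, which are not independent. Passage as a replicate block was an alternative, and its values stand beside the results it changes. The fits were also run on simulated data in which a gene had the same spread on every array. Those data therefore could not test whether the single rosette and EpiSC arrays vary like the others.

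The members and the gene lists (145 entries beside the members, 135 measured) were chosen with earlier results of these data known. Named genes are the members, 14 pathway genes fixed by name where measured, as many as 4 genes per list that differed most, others that a call or a small count includes, and for likeness the 3 closest genes. Ebf4, Mnx1, Ntrk2, Tcf4 and some called genes fall outside the largest 4 in the comparison described and were picked after their values were seen. Entries without a row of their own were not analysed here. Promoter stretches are RefSeq sequence of build GRCm38.p6, with 1 stretch a gene, and all 9 members had one.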

Additional observations from a re-analysis of the deposited data

Results flagged for a closer look

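For a few members the passage difference, or the difference between oligodendrocytes and OPCs, pointed in opposite directions in the sets compared, each with 1 array a side. None of these differences was tested, since no residual degree of freedom is left, and all are small. Passage 11 minus passage 3 was 0.000805 for Neurod4 in oligodendrocytes and -0.09 in OPCs, 0.0905 apart. It was -0.02 for Nhlh2 in oligodendrocytes and 0.18 in OPCs, -0.21 apart. Oligodendrocyte minus OPC was 0.02 for Atoh1 at passage 11 and -0.01 at passage 3, 0.0343 apart. It was 0.27 for Neurog1 at passage 11 and -0.03 at passage 3, 0.30 apart. For Neurod4 it was 0.07 at passage 11 and -0.02 at passage 3, 0.0905 apart.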

How the results depend on the processing

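Neurod4, Nhlh1, Neurog1 and Nhlh2 were called lower in OPCs than in the rosette under every alternative that kept all arrays and these genes. The limma adjusted p was at most 0.0318. Fits that left out 1 array leave a single array in a further cell type and are not counted for this. In all, 274 of 292 recomputed member differences kept their direction and their side of the threshold. Much of that count was fixed in advance. Each member has a single row, so averaging a gene's transcripts left its difference as it was. Testing all rows, the trend in the prior variance and the replicate block can alter only the p-value. Most of the differences were also not called in the main fit. Without dim genes only Neurog2 was kept, so members called in OPCs against the rosette fell to 1 and members at least 4-fold apart in the rosette against EpiSCs to 0, by construction. Genes called in OPCs against the rosette numbered 227 with all rows tested, 334 without dim genes, 1206 with passage as a replicate block, and 156 to 2897 leaving out 1 array. In OPCs against EpiSCs they were 797, 898 and 2318 in the same order, and 470 to 4154 leaving out 1 array. In oligodendrocytes against OPCs they were 1 with all rows tested, 157 with array medians centred, and 2 to 2919 leaving out 1 array. Between passages 2 were called with medians centred and 1 with a trend in the prior variance, and leaving out an array left no residual degree of freedom. At a limit of 2-fold, 2113 genes were apart in the rosette against EpiSCs. The cause of these shifts was not tested.

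Reversed signs occurred only in differences that were not called. With medians centred, oligodendrocytes against OPCs gave -0.0012 for Atoh1, and OPCs against EpiSCs gave -0.00052 for Neurog2. Leaving out 1 array, the differences in oligodendrocytes against OPCs ran from -0.0908 to 0.102 for Atoh1, -0.12 to 0.357 for Neurog1, -0.0205 to 0.115 for Neurog3 and -0.0234 to 0.0662 for Neurod4. In OPCs against EpiSCs they ran from -0.122 to 0.0369 for Atoh1, -0.0283 to 0.147 for Neurog1, -0.0736 to 0.0904 for Neurog2, -0.50 to 1.5002 for Neurod1 and -0.0142 to 0.163 for Neurod2. In OPCs against the rosette they ran from -0.0096 to 0.149 for Atoh1. Among the fits that kept every array, only the replicate block changed a member's call, that of Neurod1 in OPCs against the rosette. The call of Neurod1 also changed without either oligodendrocyte array, in fits whose spread came from the OPC pair alone. The count of members with the rosette at least 2-fold above every other array, an alternative set chosen after seeing the data, stayed at 6 in each.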

Other observations

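The 12 genes at least 2-fold higher at passage 11 in both OPCs and oligodendrocytes were picked after their values were seen. Beside Neurod1 they include Cdh19, a cadherin gene of the Schwann cell lineage, at 3.32 in OPCs and 3.32 in oligodendrocytes. Hepacam, a glial adhesion gene, was at 2.31 in OPCs and 1.21 in oligodendrocytes. Nptx1, a neuronal pentraxin gene, was at 1.76 in OPCs and 1.1996 in oligodendrocytes. Gabrg1, a GABA receptor subunit gene, was at 1.17 in OPCs and 1.16 in oligodendrocytes. Each side is a single array.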
